A study of Mus musculus with 2 samples.

Results

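The genes described here are 6 transcripts of small leukocyte surface and cytoplasmic proteins: Ly6a, Ly6i, Ly6e, Ly6c1 and Ly6c2 of the Ly6 family, and Plac8. They are 6 of the 32544 genes counted, found by symbol in both count tables. They were chosen by their difference between the libraries, which was known beforehand, so every mutant-over-control value of a member is a description and carries no test. The counts are scRNA-Seq of murine bone marrow-derived monocytes (BMDMs) from femurs, induced towards osteoclasts (OCs) in medium with M-CSF at 50 ng/ml and RANKL at 100 ng/ml. Per the study's methods, cells were taken 24 h after RANKL was added. One library came from a control and 1 from a LysM-Cre;Arid1afl/fl culture, called the mutant library here. LysM-Cre places the recombinase under the Lyz2 locus, which is active in myeloid cells, and it removes floxed Arid1a, which encodes a DNA-binding component of the SWI/SNF (BAF) remodeling machinery. The labels give the control genotype no further description.

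Ly6 proteins are small, mostly GPI-anchored proteins with a Ly6/uPAR domain, and many serve as surface markers of blood cells. Ly6a (Sca-1) marks stem and progenitor cells and is induced by interferon in many cell types. Ly6e is another interferon-inducible member that is broadly expressed. Ly6c2 contributes to the Ly6C antigen of classical monocytes, whereas Ly6c1 encodes a near-identical protein that is known from endothelium and some lymphocytes. Ly6i is expressed in myeloid cells. Plac8, a cysteine-rich protein outside the Ly6 family, is found in monocytes and neutrophils. Irf7, the transcription factor that drives type I interferon transcription, served as the companion gene for the relation across cells.

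The 5 Ly6 members are all protein-coding genes on chromosome 15 (GRCm39, GENCODE M39). Ly6e (ENSMUSG00000022587) lies at chr15:74826860-74847454 on the plus strand. The others are on the minus strand, Ly6i (ENSMUSG00000022586) at chr15:74851383-74855279, Ly6a (ENSMUSG00000075602) at chr15:74863840-74869880, Ly6c1 (ENSMUSG00000079018) at chr15:74915847-74920686 and Ly6c2 (ENSMUSG00000022584) at chr15:74980003-74988467. Plac8 (ENSMUSG00000029322) lies at chr5:100701591-100720111 on the minus strand. Because the family arose by duplication, the sequence just before the transcription start was compared between members. Over the 250 bases before the start of each canonical transcript, Ly6i and Ly6c2 shared an exact run of 50 bases, and no other pair shared more than 20. The 2 windows are shown 5′ to 3′ in the direction of transcription because these genes differed in which cells held them. Capitals mark exact runs of at least 20 bases common to both, 85 bases in all. The Ly6c2 window stops 87 bases before the start, where an exon of another Ly6c2 transcript is annotated. It lies inside the annotated gene, which extends further upstream.
Ly6i, chr15:74855280-74855529, minus strand: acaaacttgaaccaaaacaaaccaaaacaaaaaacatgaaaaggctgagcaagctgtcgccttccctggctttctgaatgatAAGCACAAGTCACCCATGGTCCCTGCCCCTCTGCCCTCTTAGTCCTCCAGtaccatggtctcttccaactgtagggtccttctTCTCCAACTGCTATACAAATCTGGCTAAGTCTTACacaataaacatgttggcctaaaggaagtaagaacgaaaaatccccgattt
Ly6c2, chr15:74983914-74984077, minus strand: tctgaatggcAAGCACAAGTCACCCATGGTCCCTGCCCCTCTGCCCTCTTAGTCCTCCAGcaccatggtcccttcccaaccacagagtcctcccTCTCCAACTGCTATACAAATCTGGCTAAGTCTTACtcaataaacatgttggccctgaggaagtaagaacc
The letters GAAANNGAAA (an interferon-stimulated response element) and TTCNNNGAA (a gamma-activated site) were searched on both strands of the 250 bases of all 6 members, and neither was found. Of 21501 protein-coding promoters of this length, 3.30% held the first and 7.73% the second. No part of the Ly6a or Ly6c2 window lies before all annotated exons of its gene, and only 227 bases of the Ly6c1 window do. The 164 bases of Ly6c2 shown above lie inside the annotated gene, which reaches upstream to chr15:74988467. Sequence before the other annotated transcripts of these genes was therefore not fully searched.

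The kit reads only the 3′ end of a transcript, so near-identical ends can share reads. The last 500 bases of the canonical Ly6a transcript hold 410 stretches of 91 bases. Of these, 171 (41.7%) also occur in transcripts of the long noncoding RNA Gm28068. Matches were sought in the direction of transcription only, so antisense overlap by itself gives none. Gm28068 also overlaps Ly6a on the opposite strand and had 6 control and 30 mutant UMIs (unique molecular identifiers). The canonical Ly6c1 and Ly6c2 transcripts share 34 of 410 such stretches (8.29%). Some other Ly6c1 transcripts share more, 15.5%, 23.9% and 26.6% with Ly6c2 and 38.1% with Ly6a and Ly6c2. A non-canonical Ly6a transcript shares 17.9% with Ly6c1. No stretch of Ly6i, Ly6e or Plac8 was found in another gene. Irf7 overlaps Phrf1 on the opposite strand. Neither the use of strand nor the treatment of reads that match 2 genes was stated, so the split between Ly6c1 and Ly6c2 and the exact level of Ly6a are uncertain.

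Cells with at least 500 detected genes and at most 10% mitochondrial UMIs were kept. The control library had 6269 of them, holding 163618835 UMIs, and the mutant library 5663, holding 131469887 UMIs. The median was 23978 and 21734 UMIs per cell, and 8 barcodes occurred in both libraries. With 1 library per genotype no difference has a replicate check. The values in parentheses are 95% intervals for counting error only, and describe these libraries rather than the genotypes. Arid1a, the targeted gene, was at 51.9 CPM (counts per 1000000 UMIs) in the control and 20.4 CPM in the mutant library, but reads of the 3′ end lie outside the deleted part, so this does not check the labels. The 4 monocytic markers of the labelled cell type were found in both libraries, at a summed 883 and 1651 CPM, and the 4 OC markers at 232 and 97.8 CPM. Markers of other cell types also differed between the libraries. The 4 neutrophil markers S100a8, S100a9, Camp and Ngp were each higher in the mutant library, and their summed level was 264 CPM in the control and 1981.5 CPM in the mutant library. The 4 class II markers summed to 28.7 and 116 CPM. Stromal (4.42 and 11.4 CPM), endothelial (6.05 and 12.1 CPM), plasmacytoid dendritic (0.477 and 2.17 CPM), stem and progenitor (15.8 and 33.3 CPM), T cell (0.263 and 0.456 CPM) and B cell (0.318 and 1.25 CPM) markers were low, and 1 symbol each of the endothelial, plasmacytoid dendritic and T cell lists was at 0 in both. Their part in the levels over all cells was not tested except where cells with these markers were left out below.

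All 6 members were higher in the mutant library. These are sums over all cells, in which fewer cells of a type and less RNA per cell cannot be told apart. Ly6a was counted with 8598 UMIs in control cells, or 52.5 CPM (51.4 to 53.7), and with 156802 UMIs in mutant cells, or 1193 CPM (1187 to 1199). This was a 22.7-fold difference, or 4.50 (4.47 to 4.54) on the log2 scale. Ly6i went from 280 to 8668 UMIs, 1.71 CPM (1.52 to 1.92) against 65.9 CPM (64.6 to 67.3). Its log2 ratio of 5.27 (5.10 to 5.44) was the highest point value of the 6. Ly6e was already found in 98.5% of control cells, at 678 CPM (674 to 682), and was at 2143 CPM (2135 to 2151) in mutant cells. Its log2 ratio was the lowest of the 6, 1.66 (1.65 to 1.67).

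Ly6c2 was counted with 454 UMIs, or 2.77 CPM (2.53 to 3.04), in the control library and 3012 UMIs, or 22.9 CPM (22.1 to 23.7), in the mutant library, which is a log2 ratio of 3.05 (2.90 to 3.19). Plac8 had 283 UMIs, or 1.73 CPM (1.53 to 1.94), and 5447 UMIs, or 41.4 CPM (40.3 to 42.5), with a log2 ratio of 4.58 (4.41 to 4.76). Ly6c1 was near the limit of detection, with 1 control UMI and 19 mutant UMIs and a log2 ratio of 4.56 (1.91 to 9.94). Of these 19 UMIs, 8 were in the 3 mutant cells with stromal markers, so its value describes a few molecules in few cells. The companions Irf7 and Isg15, a ubiquitin-like interferon-induced protein, had log2 ratios of 2.96 (2.93 to 2.99) and 2.07 (2.05 to 2.09).

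**Figure D1:**
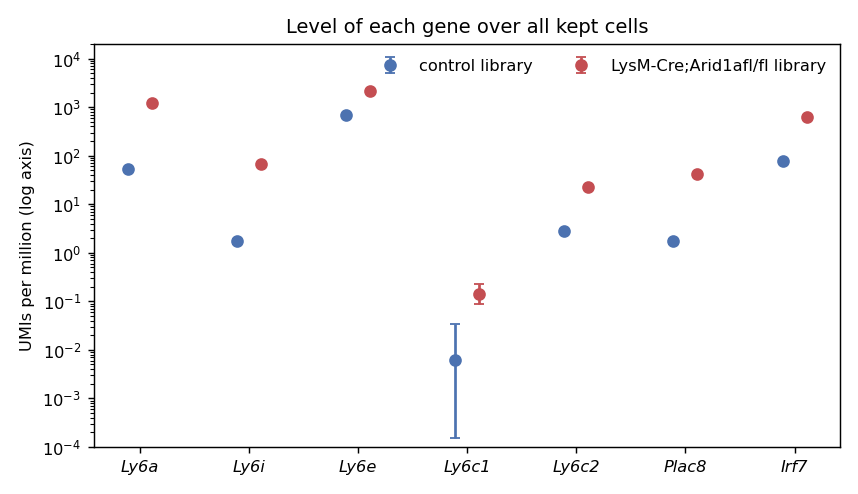
Level of the 6 members and of Irf7 in each library, in CPM on a log axis. Points are sums over all kept cells and bars are 95% Poisson intervals, which are smaller than the points except for Ly6c1; each mutant point lies above its control point, from 1.66 (Ly6e) to 5.27 (Ly6i) on the log2 scale.

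Against all genes, a log2 ratio of at least 1 was found for 295 of the 5219 genes that averaged 20 CPM or more, or 5.65%. Among the members 4 passed that minimum (Ly6a, Ly6i, Ly6e and Plac8) and 4 had such a ratio. Without the minimum, among 16614 genes with a UMI in each library, 12.5% reached it, and 6 of 6 members did. Since the members were chosen on this contrast, nothing can be read from these counts.

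A higher level can come from more cells with the transcript or from more transcripts per cell, so each cell was thinned at random to 5000 UMIs, leaving 6101 control and 5312 mutant cells and setting aside 168 and 351 shallower ones. On unthinned counts the shares of cells with a UMI were 34.5% and 82.4% for Ly6a, 3.62% and 41.9% for Ly6i, 98.5% and 99.2% for Ly6e, 0.702% and 3.32% for Ly6c2 and 0.494% and 11.7% for Plac8. Ly6a was found in 925 control cells, 15.2% (14.3 to 16.1), and in 3847 mutant cells, 72.4% (71.2 to 73.6). The cells with Ly6a held 1.85 UMIs each on average in the control library, against 8.84 in the mutant library. Thus both the share of cells (4.78-fold) and the number per cell with Ly6a (4.77-fold) were higher. More than 10 Ly6a UMIs of 5000 were found in 9 control cells (0.148%) and in 1220 mutant cells (23.0%). The range among mutant cells was wide, since 1465 of them (27.6%) had no Ly6a UMI at this depth.

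Ly6i was found in 0.770% (0.567 to 1.02) of control and 20.5% (19.4 to 21.6) of mutant cells. No control cell held more than 2 Ly6i UMIs at this depth, whereas 157 mutant cells held 3 to 5, 36 held 6 to 10 and 10 held more. Ly6e differed mainly in the number per cell. It was in 92.4% (91.7 to 93.0) of control and 99.6% (99.4 to 99.8) of mutant cells, and its median was 3 UMIs in control and 10 UMIs in mutant cells. The lowest 10% of mutant cells reached up to 5 UMIs, the same count as the upper quartile of control cells.

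Plac8 and Ly6c2 were found in far fewer cells. Plac8 was found in 0.311% (0.188 to 0.486) of control and 6.72% (6.06 to 7.43) of mutant cells, with 4.53 and 5.18 UMIs per cell with Plac8. Ly6c2 was found in 0.426% (0.279 to 0.624) of control and 2.39% (2.00 to 2.84) of mutant cells, with 6.58 and 8.98 UMIs per cell with Ly6c2. For these genes the number per positive cell differed by 1.15-fold and 1.37-fold, and the share of cells by 21.6-fold and 5.61-fold. The number per positive cell mixes cell groups. Of the cells with Plac8, 11 of 19 control and 66 of 357 mutant cells were neutrophil-marker cells, defined below. The 57 mutant cells with the most UMIs of a gene, the top 1%, held 81.2% of all Ly6c2 UMIs and 52.5% of all Plac8 UMIs. By the same measure they held 15.5% for Ly6i, 6.83% for Ly6a and 3.46% for Ly6e, so in the mutant library these genes were spread over many cells. In the control library the top 1%, or 63 cells, held 41.4% of Ly6i, 24.4% of Ly6a and 4.09% of Ly6e UMIs.

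Cells were next divided by gates, which are ranges of a summed count and not cell types. The OC gate required that Ctsk, Mmp9, Acp5 and Dcstamp together reached 3 of the 5000 UMIs. The cycling gate used the sum of Mki67, Top2a, Aurka and Cdk1 with the same cut. The neither-gate group had 3351 control and 3319 mutant cells, the cycling gate 2137 and 1655, the OC gate 344 and 148, and both gates 238 and 49. Set apart first were 12 control and 64 mutant cells with at least 3 UMIs of H2-Aa, H2-Ab1 and H2-Eb1 (class II-marker cells) and 18 and 88 cells with at least 2% of their UMIs from the 4 neutrophil markers (neutrophil-marker cells). No gap separated the OC gate from the rest, as 291 control and 240 mutant cells had 2 UMIs of the OC genes and 137 and 97 had exactly 3.

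Ly6a was higher in the mutant library in each of the 4 gate groups. In neither-gate cells it was at 59.8 and 1177 CPM, a log2 ratio of 4.30 (4.26 to 4.34). In cycling-gate cells it was at 51.3 and 1203 CPM, a log2 ratio of 4.55 (4.50 to 4.60). In OC-gate cells it was at 12.0 and 1118 CPM, a log2 ratio of 6.54 (6.28 to 6.82), and in cells of both gates at 21.8 and 859 CPM, or 5.30 (5.07 to 5.54). The larger OC-gate ratio came with a lower control level. Within the control library, OC-gate cells had less Ly6a than neither-gate cells by a log2 ratio of -2.31 (-2.59 to -2.05). Within the mutant library the same ratio was -0.07 (-0.12 to -0.03). With gates on unthinned counts, where deep cells pass more easily, the mutant-over-control ratio of the OC gate was 4.64 in place of 6.54, so its size depends on the cut.

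The cell shares show the same pattern. Ly6a was found in 5.23% (3.13 to 8.14) of control OC-gate cells and 70.9% (62.9 to 78.1) of mutant OC-gate cells. In neither-gate cells the shares were 16.4% (15.2 to 17.7) and 71.6% (70.0 to 73.1). Among the groups named, the highest Ly6a level was in class II-marker cells, 683 CPM in 12 control cells and 3211 CPM in 64 mutant cells. Their log2 ratio was 2.23 (2.01 to 2.47), or 3.09 with gates on unthinned counts. By contrast, neutrophil-marker cells of the control library had 0 Ly6a UMIs, which allows a level of up to 18.0 CPM at 3 UMIs over the group. In the mutant library they had 435 CPM, at least 24.1-fold higher when set against that limit, and 13 of 74 such cells had a UMI at the fixed depth, 17.6% (9.70 to 28.2). Neutrophil-marker cells were shallower than the rest, with medians of 7345 and 9703 UMIs.

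Ly6i followed Ly6a. Its level was 1.99 and 61.6 CPM in neither-gate cells, a log2 ratio of 4.95 (4.73 to 5.19), and 1.61 and 72.4 CPM in cycling-gate cells, a ratio of 5.49 (5.20 to 5.79). In OC-gate cells 4 control UMIs stood against 182 mutant UMIs, a ratio of 6.95 (5.57 to 8.84), which was 5.40 with gates on unthinned counts. Mutant shares ranged narrowly over the 4 gate groups, from 19.8% in neither-gate to 22.4% in both-gate cells. Ly6e was lower in OC-gate than neither-gate cells of the control library, 447 against 710 CPM, a log2 ratio of -0.67 (-0.71 to -0.62). In the mutant library these levels were 1890 and 2121 CPM, a ratio of -0.17 (-0.20 to -0.13). Irf7 had the same order, with -1.15 (-1.29 to -1.01) in the control library and -0.12 (-0.18 to -0.06) in the mutant library. Thus with these gates the OC-gate cells of the control library had lower Ly6a, Ly6i, Ly6e and Irf7 than neither-gate cells, by more than those of the mutant library did. With gates on unthinned counts the mutant-over-control ratios of Ly6a in OC-gate and neither-gate cells were 4.64 and 4.29, much closer than 6.54 and 4.30, and those of Ly6i were 5.40 and 4.81. Differences between cultures could not be estimated with 1 library each.

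**Figure D2:**
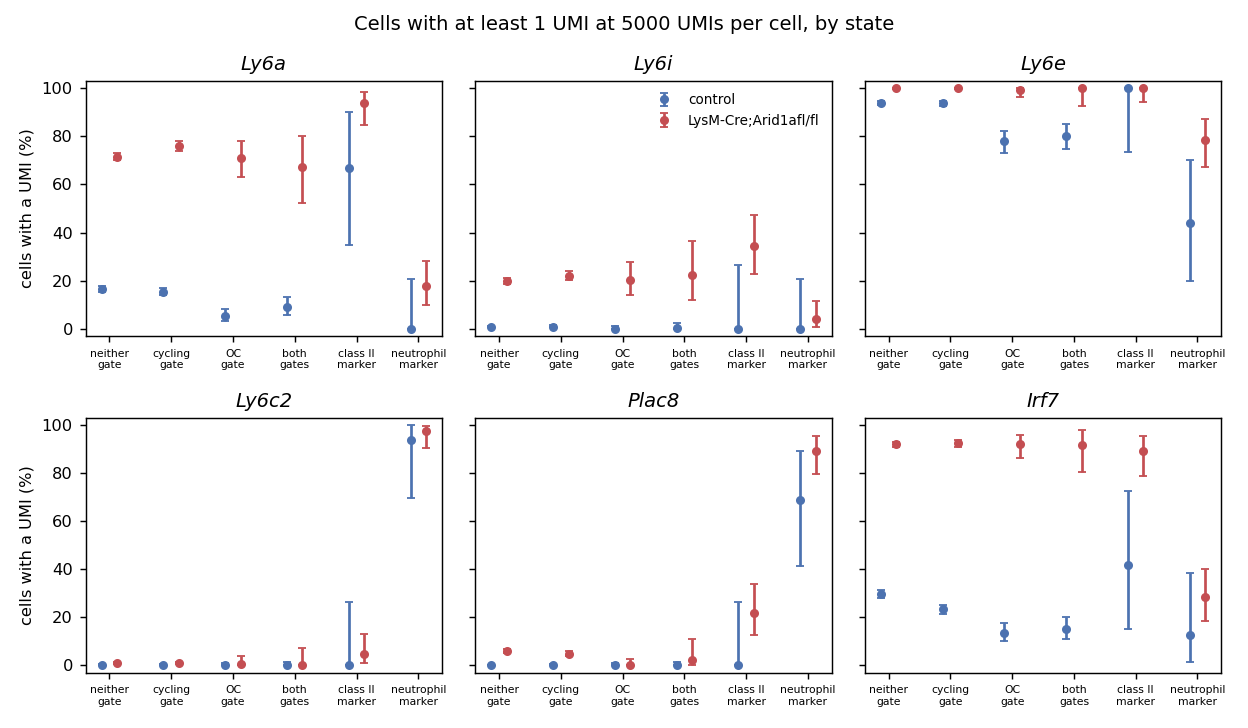
Share of cells with at least 1 UMI after thinning to 5000 UMIs, for 5 members and Irf7, by cell group and library. Points are shares and bars 95% Clopper-Pearson intervals; Ly6a was in 16.4% of control and 71.6% of mutant neither-gate cells, whereas Ly6c2 and Plac8 were in less than 10% of cells of the 4 gate groups and in most neutrophil-marker cells.

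Ly6c2 and Plac8 behaved differently from the other members, because neutrophil-marker cells held much of them. These cells were 0.287% of control and 1.55% of mutant cells, yet held 57.7% of control and 73.6% of mutant Ly6c2 UMIs. Within them Ly6c2 was at 1574 CPM (262 UMIs) in the control and 2095 CPM (2216 UMIs) in the mutant library, a log2 ratio of 0.41 (0.23 to 0.60), against 3.05 over all cells. Without neutrophil-marker cells the Ly6c2 ratio over all other cells was 2.38. In neither-gate cells it was 1.29 against 7.48 CPM, a ratio of 2.53 (2.23 to 2.84), and in cycling-gate cells 1.28 against 3.08 CPM, or 1.27 (0.86 to 1.69). The cycling-gate ratio was 2.12 with gates on unthinned counts.

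Plac8 was at 991 and 1495 CPM in neutrophil-marker cells, a log2 ratio of 0.59 (0.36 to 0.83), and these cells held 58.3% of control and 29.0% of mutant Plac8 UMIs. Outside them the difference was larger, not smaller. In neither-gate cells Plac8 was at 0.903 and 29.7 CPM, a ratio of 5.04 (4.70 to 5.39), and in cycling-gate cells at 0.638 and 24.8 CPM, or 5.28 (4.83 to 5.77). With gates on unthinned counts these ratios were 6.50 and 4.56. Without neutrophil-marker cells the ratio over all other cells was 5.36 in place of 4.58. Class II-marker cells had 0 control UMIs in 12 cells and 260 mutant UMIs in 64 cells, at least 17.8-fold higher when set against 3 control UMIs. In the OC gate Plac8 was sparse, with 0 control UMIs and 13 mutant UMIs in 4 of 148 cells.

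**Figure D3:**
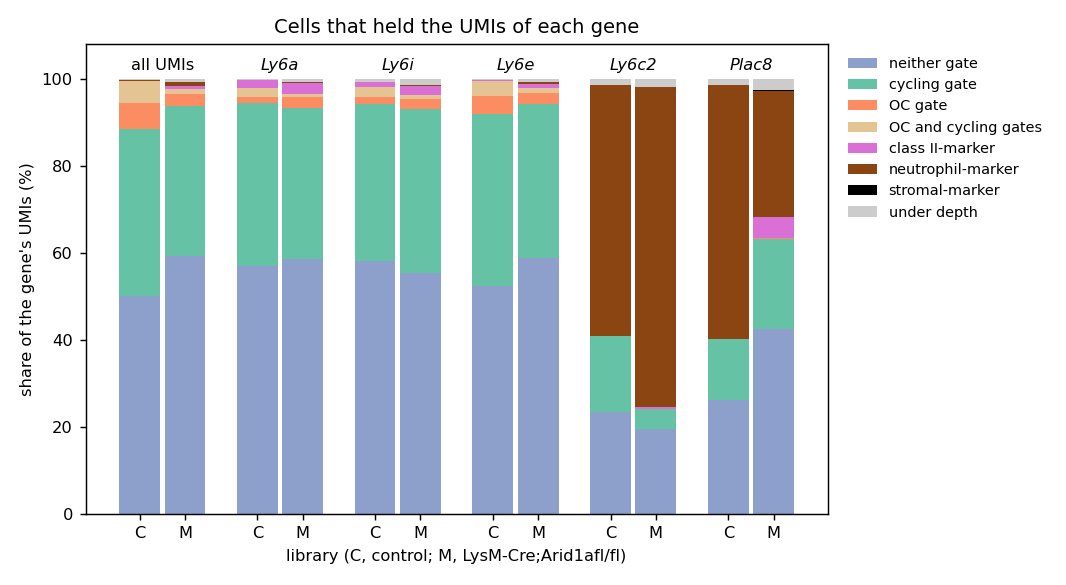
Share of each gene's UMIs that was held by each cell group, in the control (C) and mutant (M) library, beside the share of all UMIs. Ly6a, Ly6i and Ly6e were held mainly by neither-gate and cycling-gate cells, as were all UMIs, whereas neutrophil-marker cells held 57.7% and 73.6% of Ly6c2 UMIs and 58.3% and 29.0% of Plac8 UMIs.

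Plac8 and Ly6c2 were also set against S100a8 in both kinds of cells. In mutant neutrophil-marker cells there were 1.43 (1.36 to 1.50) Plac8 UMIs and 100 (99.5 to 101) S100a9 UMIs for each 100 UMIs of S100a8. In mutant cells of the 4 gate groups there were 71.8 (68.7 to 75.0) Plac8 UMIs and 30.2 (28.5 to 32.1) S100a9 UMIs for each 100. For Ly6c2 the values were 2.00 (1.92 to 2.08) and 15.1 (13.9 to 16.3). In the control library Plac8 was at 1.05 (0.898 to 1.23) and 4.47 (3.67 to 5.40), and S100a9 at 115 (112 to 117) and 9.30 (8.10 to 10.6). Thus Plac8 and Ly6c2 were higher, and S100a9 lower, against S100a8 in the gate groups than in neutrophil-marker cells. S100a8 and S100a9 are among the genes that define neutrophil-marker cells, so these ratios depend in part on that cut. The part of free RNA in the counts of the gate groups was not tested.

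The Plac8-positive cells of the gate groups differed from the other gate-group cells in several of the transcripts looked at. Of 277 such mutant cells, 11.9% (8.34 to 16.3) also had Ly6c2, against 0.388% (0.234 to 0.606) of the 4894 without Plac8. Ccr2, the chemokine receptor of classical monocytes, was found in 19.9% (15.3 to 25.0) against 1.55% (1.23 to 1.94). Of the 12 classical monocyte markers listed below, only Ccr2 was looked at in these cells, and it was chosen after values were seen. It does not name a cell type. Ly6i was found in 46.6% (40.6 to 52.6) against 19.1% (18.0 to 20.2), and Ly6a in 79.1% (73.8 to 83.7) against 72.6% (71.3 to 73.8). S100a8 was in like shares of both, 9.75% (6.52 to 13.9) and 9.32% (8.52 to 10.2), but its mean was 0.599 UMIs per cell (0.512 to 0.698) with Plac8 and 0.131 (0.121 to 0.142) without. For S100a9 the means were 0.253 (0.197 to 0.319) and 0.0237 (0.0196 to 0.0284) UMIs per cell. The shares with Irf7 were 94.2% (90.8 to 96.7) and 92.0% (91.2 to 92.7). There were 52 mutant cells with Ly6c2 in the gate groups. Plac8 was in 63.5% (49.0 to 76.4) of them against 4.77% (4.20 to 5.39) of cells without Ly6c2, and Ccr2 in 30.8% (18.7 to 45.1) against 2.25% (1.86 to 2.69). Unlike the cells with Plac8, they also differed in the shares with S100a8, 25.0% (14.0 to 38.9) against 9.18% (8.40 to 10.0), and with Irf7, 73.1% (59.0 to 84.4) against 92.3% (91.5 to 93.0). In the control library 8 gate-group cells had Plac8 and 11 had Ly6c2, and 5 cells had both. Of the 8 with Plac8, 4 had S100a8, or 50.0% (15.7 to 84.3), against 5.06% (4.53 to 5.65) of those without. The part of neutrophil transcripts in these values was not tested.

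The relation to Irf7 was examined cell by cell within each library, at 5000 UMIs. Pearson's r of log counts is given as a description over cells that share 1 library, with no p. For Ly6a it was 0.197 over 6101 control cells and 0.161 over 5312 mutant cells, and for Ly6e 0.203 and 0.191. For Ly6i it was 0.016 and 0.058, for Plac8 -0.010 and -0.069 and for Ly6c2 -0.014 and -0.172. These are weak in counts this sparse, and their size depended on the processing. On unthinned log-normalized counts r was 0.295 in control and 0.175 in mutant cells for Ly6a. For Ly6e it was 0.344 and 0.296, and for Ly6c2 in mutant cells -0.249. Spearman's rho at 5000 UMIs was 0.148 and 0.151 for Ly6a and 0.196 and 0.156 for Ly6e. For Ly6c2 in mutant cells rho was -0.123. At 5000 UMIs within neither-gate cells, r was 0.206 and 0.156 for Ly6a and 0.192 and 0.129 for Ly6e. The mutant value of Ly6c2 was -0.023 within neither-gate cells, -0.089 within the 1655 cycling-gate cells, of which 16 had Ly6c2, and -0.170 within the 148 OC-gate cells, of which 1 had Ly6c2.

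Binning cells by their Irf7 UMIs showed how far a like Irf7 count went with a like Ly6a count. In the control library 4522 cells (74.1%) had no Irf7 UMI and held 0.187 (0.175 to 0.200) Ly6a UMIs each. The mean was 0.459 at 1 Irf7 UMI, 0.413 at 2 and 0.863 at 3 to 5, and 3.92 (3.17 to 4.79) in the 24 cells with 6 or more. In the mutant library the 472 cells (8.89%) without an Irf7 UMI already held 4.20 (4.02 to 4.39) Ly6a UMIs each. The later means were 5.54, 5.35 and 6.82, and 9.30 (9.07 to 9.53) in the 698 cells with 6 or more. The log2 ratio of mutant over control was 4.49 (4.37 to 4.61) without Irf7, 2.98 (2.76 to 3.22) at 3 to 5 and 1.25 (0.95 to 1.56) at 6 or more. Thinned to 10000 UMIs, the ratio at 6 or more was 2.35, so the last value depends on the depth and rests on few control cells.

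Ly6e differed less by the same measure. Its log2 ratio was 1.52 (1.47 to 1.57) in cells without an Irf7 UMI and 0.69 (0.49 to 0.91) at 6 or more. At 10000 UMIs these Ly6e ratios were 1.06 (0.97 to 1.15), on 86 mutant cells, and 0.91 (0.83 to 0.99). The highest there was 1.47 (1.42 to 1.53), at 1 Irf7 UMI. The order of the Ly6e ratios over the bins thus depends on the depth. Ly6i had a ratio of 5.27 (4.72 to 5.86) without Irf7 and 5.17 (3.31 to 8.22) at 3 to 5, where 2 control UMIs were counted. Thinned to 10000 UMIs, the first was 4.27 (3.52 to 4.98) and the second 4.91 (4.03 to 5.98). Plac8 in mutant cells was highest without Irf7, at 1.16 UMIs per cell, against 0.207 at 1 and 0.457 at 6 or more. Most of that first value belonged to neutrophil-marker cells, since over the 4 gate groups it was 0.355. There the highest mean was at 6 or more, 0.422. For Ly6c2 the value without Irf7 was 1.60 over all mutant cells and 0.267 over the gate groups. An Irf7 count of 0 at this depth does not mean that a cell lacks Irf7 mRNA, and equal counts do not mean equal levels.

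**Figure D4:**
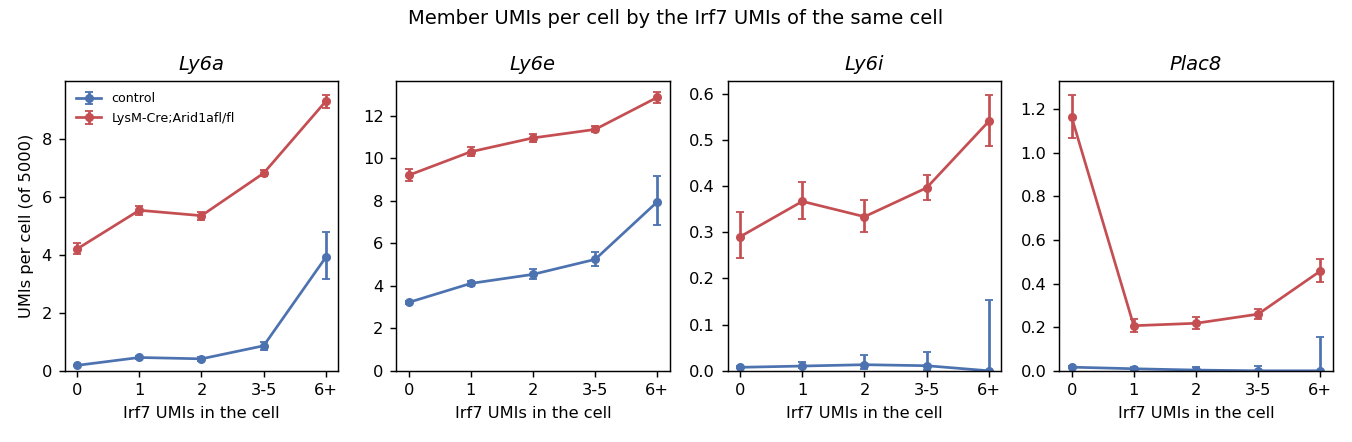
Mean UMIs per cell of Ly6a, Ly6e, Ly6i and Plac8 at 5000 UMIs per cell, by the number of Irf7 UMIs in the same cell, with 95% Poisson intervals. Mutant cells held more Ly6a than control cells in each bin, 4.20 against 0.187 without Irf7 and 9.30 against 3.92 with 6 or more; the Plac8 value of mutant cells without Irf7, 1.16, includes the neutrophil-marker cells.

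Members were also compared with each other. In the mutant library 80.6% (78.1 to 82.9) of cells with Ly6i also had Ly6a, against 70.3% (68.9 to 71.7) of cells without. Plac8 was in 12.7% (10.8 to 14.8) of cells with Ly6i and 5.18% (4.54 to 5.90) of cells without. Ly6c2 and Plac8 were found together in 99 of 127 Ly6c2-positive mutant cells, or 78.0% (69.7 to 84.8), and in 15 of 26 control cells, or 57.7% (36.9 to 76.6). Of Ly6a, Ly6i, Plac8 and Ly6c2, 980 mutant cells (18.4%) had exactly 2, 128 had 3 and 11 had 4. The control library had 36 cells with 2, 1 with 3 and 0 with 4.

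The 5 genes most alike to each member were ranked by Pearson's r of log thinned counts over 5312 mutant cells, among 7156 genes found in at least 5% of them. For Ly6a they were Ifi27l2a (0.259), H2-Q7 (0.257), Ly6e (0.246), H2-K1 (0.238) and Isg15 (0.231), which are interferon-inducible and class I genes. For Ly6e they were Grn (0.320), H2-K1 (0.317), B2m (0.300), Bst2 (0.289) and Lgals3bp (0.269). For Ly6i they were Ms4a4c (0.238), Tmem176a (0.227), Cd52 (0.216), Tmem176b (0.212) and Plac8 (0.208). Ly6c2 was nearest to S100a8 (0.791), followed by Plac8 (0.605), F630028O10Rik (0.543), Fam107b (0.492) and Cd24a (0.396). For Plac8 they were S100a8 (0.441), Fam107b (0.339), Napsa (0.316), F630028O10Rik (0.316) and Lsp1 (0.280). In the control library r with S100a8 was 0.729 for Ly6c2 and 0.547 for Plac8. Ly6c1, found in 6 cells, had no r above 0.072, with Smpd4, Lmbrd2, Spag7, Ankrd33b and Ube2v1 first.

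Mutant cells with an Arid1a UMI were compared with those that had none, at 5000 UMIs. Reads of the 3′ end lie outside the deleted part, so such a UMI does not mark a cell that kept the gene. Even in the control library only 21.1% of cells had one at this depth. The split therefore cannot show how a member relates to loss of Arid1a. Ly6a was in 70.7% (66.6 to 74.5) of 539 cells with Arid1a and 72.6% (71.3 to 73.9) of 4773 cells without, and Ly6i in 21.7% (18.3 to 25.4) and 20.3% (19.2 to 21.5). These intervals overlap. Ly6c2 was more frequent in cells with Arid1a, 4.82% (3.17 to 6.99) against 2.12% (1.73 to 2.57). In neutrophil-marker cells, which held most Ly6c2, Arid1a was at 54.1 CPM in the control and 54.8 CPM in the mutant library, a log2 ratio of 0.02 (-1.0 to 1.22) on 9 and 58 UMIs. In neither-gate cells that ratio was -1.28 (-1.37 to -1.19).

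Other genes of the Ly6 superfamily did not share one direction. Of 39 symbols listed, 38 were in the count table and 20 had no UMI in either library. Of the 4 with a mean of at least 20 CPM (Ly6a, Ly6i, Ly6e and Plaur), all had a log2 ratio of at least 1, and their median was 3.08 against 0.02 over all 5219 genes. As 3 of the 4 are members, this is no independent support. Plaur, the urokinase receptor, was at 55.7 and 117 CPM, a ratio of 1.07 (1.03 to 1.11). Below that minimum, Ly6m had 33 and 102 UMIs (1.94, 1.36 to 2.56), Ly6g, the granulocyte antigen, 5 and 37 (3.20, 1.85 to 4.91) and Lynx1 12 and 28 (1.54, 0.52 to 2.65). Cd59a, an inhibitor of complement lysis, was lower in the mutant library, with 17.1 and 15.3 CPM and a ratio of -0.16 (-0.25 to -0.08), and so was its paralogue Cd59b (-0.34, -0.62 to -0.05). The intervals of Ly6g5b (-0.48, -1.29 to 0.29) and Ly6g6d (0.90, -0.23 to 2.09) included 0.

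Along chromosome 15, within 500 kb of the Ly6 members, 35 genes were in the table and 14 had at least 20 UMIs. Besides the 5 members, 5 of the 9 others had a log2 ratio of at least 1: Lynx1, Ly6m, the lncRNA Gm39556 (1.42, 1.07 to 1.77), Gm28068 (2.64, 1.35 to 4.19) and Ly6g. The other 4, Arc, Jrk, Them6 and Zfp41, lay towards the edges and ranged from -0.15 to 0.35. Thus ratios of at least 1 were not limited to the members within the cluster, though these 5 neighbours were at 1.67 CPM or less. Among all 16614 genes with a UMI in each library, a filter unlike the 20 UMIs used here, 12.5% had such a ratio. The part of Ly6a reads in the Gm28068 count, and of neutrophil-marker cells in that of Ly6g, was not tested. Around Plac8, 11 of 13 other genes had a ratio below 1. Its closest neighbours Cops4 (-0.21, -0.26 to -0.17) and Coq2 (0.19, 0.12 to 0.26) differed little. The exceptions were Hpse, a heparan sulfate-cleaving enzyme (1.13, 1.03 to 1.23), and the lncRNA 4930458D05Rik, on 15 and 25 UMIs (1.05, 0.07 to 2.08).

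**Figure D5:**
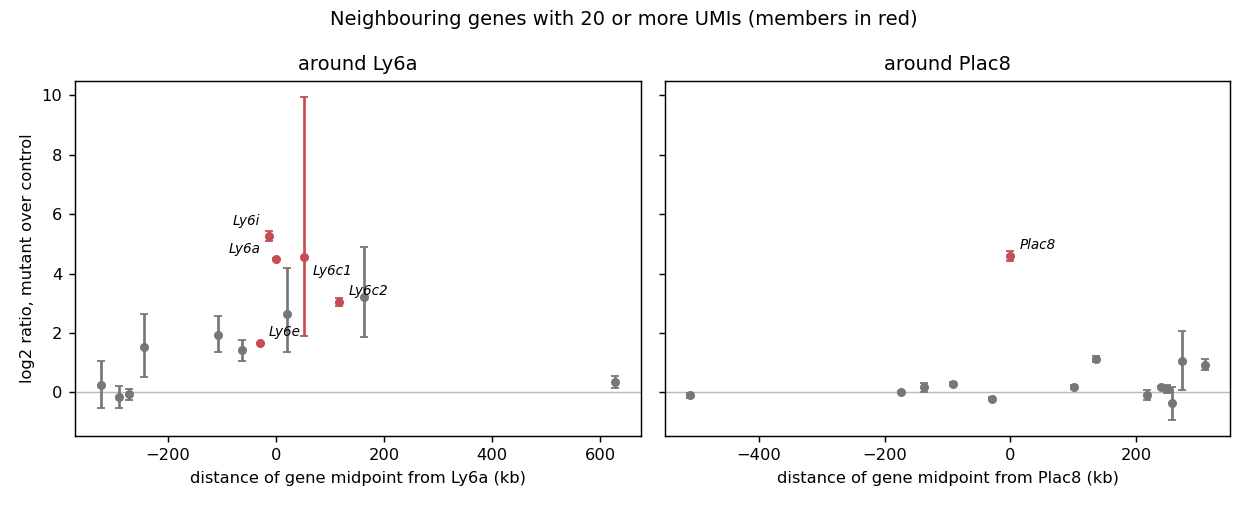
Log2 ratio of mutant over control for genes with at least 20 UMIs near Ly6a (left) and Plac8 (right), against the distance of each gene's midpoint in kb. Red points are members, grey points are neighbours and bars are 95% intervals; around Ly6a several neighbours were also above 1, whereas Plac8 at 4.58 stood above its neighbours, which ranged from -0.36 to 1.13.

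Finally the members were set beside 2 programmes in which they are often grouped. The lists, like the members, were chosen with earlier results of these data known, so the counts and ranks below are descriptions only. For scale, 5.65% of the 5219 genes that averaged 20 CPM or more had a log2 ratio of at least 1. The median log2 ratio of these 5219 genes was 0.02. Of 36 interferon-stimulated genes, 35 had a mean of at least 20 CPM, 31 had a log2 ratio of at least 1 and none was at or below -1, with a median of 1.74. The highest were Ms4a4c (4.47) and Ifi44 (4.13) and the lowest Ifitm3 (0.68) and Irf9 (0.69). The ratio of Ly6i (5.27) lay above that of each listed gene beyond counting error, those of Ly6a (4.50) and Plac8 (4.58) overlapped the interval of Ms4a4c (4.37 to 4.57), and that of Ly6e (1.66) lay close to the median. Of 12 classical monocyte markers, 7 passed the minimum and 3 had a ratio of at least 1, with a median of 0.65. Cx3cr1 (2.98) and Chil3 (2.90) were highest, whereas Vcan (-0.65) and S100a4 (-0.62) were lower in the mutant library. The listed genes are not all confined to classical monocytes, Cx3cr1 and Csf1r among them. Csf1r is also one of the 4 monocytic markers above. These counts therefore do not name a cell type. Ccr2, the only listed marker looked at in cells with Plac8 or Ly6c2, was at 1.72 and 7.90 CPM, a ratio of 2.20 (2.01 to 2.39).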

How the data were processed

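BMDMs of 1 control and 1 LysM-Cre;Arid1afl/fl culture were profiled by 3′ scRNA-Seq (chemistry 3.1). The authors deposited unnormalised UMI counts for each gene in each barcode, made with Cell Ranger 6.1.0 against GRCm39. Whether the libraries were equalised in depth, and whether strand was used, is not given in the sources used here. A minimum of 500 genes and a maximum of 10% mitochondrial UMIs removed 186 control and 202 mutant barcodes here. Doublets were kept in the main values, and 333 and 275 barcodes were marked by comparison with simulated doublets and left out as an alternative. Median depth was 23978 and 21734 UMIs per cell.

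Counts were summed over cells and divided by library totals. Intervals (95%) were exact Poisson for levels, exact conditional for ratios and Clopper-Pearson for shares, and they describe counting error alone. No test was made, since each group has 1 library. Cells were thinned to 5000 UMIs (random seed 11) for shares, gates and correlations. The scripts were tested on simulated data. Genes were named by rule: the 6 members, Irf7, Isg15, Arid1a, the 5 genes with the highest r per member, Ly6 superfamily genes with at least 20 UMIs, the 2 highest and 2 lowest ratios of the other lists, and genes of both neighbourhoods. Ccr2 and S100a8 were set beside Plac8 and Ly6c2 after values were seen. Members and gene lists were chosen with earlier results of these data known. Alternatives were other scalings, filters, depths, doublet removal and leaving out minor groups, of which leaving out neutrophil-marker cells alone and Irf7 bins without minor groups were chosen after seeing the data. Python 3.11.15, NumPy 2.4.6, SciPy 1.17.1, pandas 2.3.3, scikit-learn 1.9.0, matplotlib 3.10.9 and, for TMM factors, edgeR 4.0.16 in R 4.3.3 were used.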

Additional observations from a re-analysis of the deposited data

How the results depend on the processing

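With 1 library per genotype no replicate could be left out. No paired analysis was possible because each group has 1 library and no test was made. All 54 recomputed mutant-over-control levels of the members stayed above 0, 42 of them inside the interval of the value reported. Other scalings lowered the log2 ratios of all genes together, by -0.109 for totals without mitochondrial and ribosomal protein genes, -0.090 for median-of-ratios and -0.063 for TMM. The Ly6a ratio was then 4.40, 4.41 and 4.44, and that of Ly6e 1.55, 1.57 and 1.60. With equal weight per cell Ly6e was 1.68 and Ly6c2 2.86. Without neutrophil-, stromal- and class II-marker cells Ly6c2 was 2.37 and Plac8 5.27, and without neutrophil-marker cells alone 2.38 and 5.36.

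Differences in the share of positive cells depended on depth and on the UMIs required. In percentage points, thinned to 2000 UMIs, they were 54.0 for Ly6a, 9.68 for Ly6i, 25.4 for Ly6e and 4.32 for Plac8. At 10000 UMIs they were 27.4 for Ly6i, 2.07 for Ly6e, 1.47 for Ly6c2 and 7.56 for Plac8. On unthinned counts they were 47.9 for Ly6a, 38.3 for Ly6i, 0.740 for Ly6e, 0.231 for Ly6c1, 2.62 for Ly6c2 and 11.2 for Plac8. With at least 2 UMIs required they were 7.90 for Ly6i, 20.2 for Ly6e, 1.50 for Ly6c2 and 3.66 for Plac8. Of 30 recomputed shares 29 were above 0. Among 30 recomputed correlations with Irf7, 14 lay outside the interval of the value reported. Without the minimum of 20 CPM, 9 Ly6 superfamily genes (in place of 4) and 7 classical monocyte markers (in place of 3) had a log2 ratio of at least 1, because more genes were counted. Depth limits the Ly6c1 values most, at 1 and 19 UMIs.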
